A study of Mus musculus with 6 samples.

Results

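Serine synthesis, folate one-carbon metabolism and the enzymes that draw on them are represented here by 10 genes: Phgdh, Psat1, Psph, Shmt1, Shmt2, Mthfd2, Aldh1l2, Cbs, Gpt2 and Asns. The genes were chosen by symbol, and selected on fold changes between the groups of these 6 libraries that were already known. They come from 55433 gene rows, and all 10 were among the 17711 genes that passed a filter on low counts. RNA was sequenced from whole spinal cord at embryonic stage E13.5 in a mouse study of the transcription factor NFIA in developing motor neurons. One group of 3 libraries was labelled NFIAcKO. Its genotype was NFIA-ff together with Nestin-cre, a transgene that drives cre recombinase in neural progenitors, so their descendants inherit the recombined allele. The other group of 3 was labelled control and carried NFIA-ff without cre. Both groups share NFIA-ff and the strain C57BL/6J, and since only the first group carried cre, the transgene and the deletion cannot be told apart. Nothing in the labels gives litters or pools.

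Because the enzymes were chosen with the difference between the groups in view, their fold changes are given as a description without a p-value. How many of them passed the threshold is also given as description. A share above that of all tested genes is no separate support, since the choice used the same difference. A gene is called lower or higher at a Benjamini-Hochberg adjusted p under 0.05 in edgeR's quasi-likelihood test over all 17711 genes. Levels are in CPM (gene counts scaled to the TMM-adjusted library size), and every fold change is libraries labelled NFIAcKO over libraries labelled control.

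Cells make serine from a glycolytic intermediate in a short chain: Phgdh oxidises phosphoglycerate, Psat1 transfers an amino group from glutamate, and Psph removes the phosphate. Serine hydroxymethyltransferases (Shmt1 in the cytosol, Shmt2 in mitochondria) then split serine into glycine and a one-carbon unit carried by folate, which Mthfd2 and Aldh1l2 oxidise further in mitochondria. Cbs joins serine to homocysteine in the first step of transsulfuration. Gpt2 is the mitochondrial alanine transaminase, and Asns makes asparagine from aspartate and glutamine. In the nervous system serine synthesis is best known from radial glia and astrocytes, which supply serine to neurons, and several of these enzymes are known targets of ATF4, the transcription factor of the amino acid response.

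The start regions of the genes that differed most between the groups, with that of Asns for comparison, are shown so that the motifs named below can be read in them. RefSeq (GRCm38.p6) gave a window of 250 bases before to 50 after the start for 9 of the 10 genes (not Aldh1l2), with a second window for Psat1. Each sequence reads 5′ to 3′ on the gene's strand, and capitals mark the CCAAT box and the amino acid response core. The windows lie at chr3:98339920-98340219 (minus strand, Phgdh), chr19:15925010-15925309 (minus, Psat1), chr17:31637156-31637455 (minus, Cbs), chr8:85492326-85492625 (plus, Gpt2) and chr6:7693160-7693459 (minus, Asns).
Phgdh: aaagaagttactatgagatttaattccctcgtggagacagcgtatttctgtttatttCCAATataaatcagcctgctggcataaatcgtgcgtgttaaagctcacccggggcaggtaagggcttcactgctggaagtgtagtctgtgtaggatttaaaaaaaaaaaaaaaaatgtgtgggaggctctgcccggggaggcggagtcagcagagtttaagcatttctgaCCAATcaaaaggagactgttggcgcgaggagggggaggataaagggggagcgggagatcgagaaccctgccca
Psat1: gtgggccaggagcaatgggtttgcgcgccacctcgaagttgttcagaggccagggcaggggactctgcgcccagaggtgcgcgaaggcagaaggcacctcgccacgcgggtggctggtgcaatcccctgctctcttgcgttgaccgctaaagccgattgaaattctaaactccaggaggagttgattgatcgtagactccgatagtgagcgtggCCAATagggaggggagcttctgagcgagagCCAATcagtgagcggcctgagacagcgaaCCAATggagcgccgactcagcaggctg
Cbs: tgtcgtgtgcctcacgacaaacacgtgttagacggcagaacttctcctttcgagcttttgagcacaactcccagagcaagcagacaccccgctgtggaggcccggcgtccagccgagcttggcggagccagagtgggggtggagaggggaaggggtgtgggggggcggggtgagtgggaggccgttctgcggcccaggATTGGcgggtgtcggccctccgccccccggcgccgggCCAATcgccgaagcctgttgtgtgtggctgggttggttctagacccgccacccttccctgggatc
Gpt2: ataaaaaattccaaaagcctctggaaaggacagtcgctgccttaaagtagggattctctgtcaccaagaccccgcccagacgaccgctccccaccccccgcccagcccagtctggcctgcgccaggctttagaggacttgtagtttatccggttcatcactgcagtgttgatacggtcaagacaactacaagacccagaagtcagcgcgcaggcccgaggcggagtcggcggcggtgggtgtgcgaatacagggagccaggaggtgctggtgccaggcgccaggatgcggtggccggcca
Asns: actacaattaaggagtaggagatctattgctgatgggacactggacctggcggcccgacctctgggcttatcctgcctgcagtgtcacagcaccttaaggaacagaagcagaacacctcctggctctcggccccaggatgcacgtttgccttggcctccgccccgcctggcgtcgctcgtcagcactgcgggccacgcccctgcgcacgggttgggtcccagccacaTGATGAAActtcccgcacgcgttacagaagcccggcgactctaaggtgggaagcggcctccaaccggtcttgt
The amino acid response core was searched as TGATGNAA on both strands. Among the 10 windows, Asns alone held it, 23 bases before the start, against 3.97% of all 32851 windows of this length. The full NFI site (TTGGC and GCCAA with 5 bases between them, in 0.0365% of all windows) was in no window of the 9 genes. TTGGCA, the arm TTGGC with an A added (in 14.1%), was in none of them either. The shorter arms TTGGC and GCCAA were not searched alone. They do occur in windows printed above, such as TTGGC in those of Phgdh, Cbs and Asns and GCCAA in that of Psat1. The E-box CACGTG, in 7.15% of all windows, was in that of Cbs only. CCAAT, searched on both strands and held by 37.4% of all windows, was in those of 6 of the 9 genes: Phgdh, Psat1, Psph, Shmt1, Mthfd2 and Cbs. The last 4 letters of the NFI site are also the first 4 of CCAAT, so matches to these motifs can share letters. A match is a run of letters and not a measured site, and its absence says only that these letters are not in the window.

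Each library held between 43393053 and 51465763 counts on genes. Nfia itself had 5144, 5016 and 5636 counts in the libraries labelled NFIAcKO and 2641, 3110 and 3683 in those labelled control, so the targeted gene was higher where the label says it was deleted. Gene-level counts also take in exons outside the deleted stretch, so they do not test the deletion. The groups are named by their labels throughout, and every direction is relative to those labels. All 10 spinal cord markers checked (6 Hox genes, Olig2, Mnx1, Isl1 and Chat) were detected. Of these, 1 was called higher (Hoxc8, log2 fold change 0.39, edgeR adjusted p = 0.019) and 0 lower. With each library's trend with length and GC content removed, 2 were called higher (Hoxc8 and Mnx1) and 0 lower. Xist had 9316 counts in NFIAcKO replicate 2 and 17620 in control replicate 2, and 0 to 3 counts in each other library. Long transcripts were relatively higher in the libraries labelled NFIAcKO, with a slope of log2 CPM per doubling of exonic length of 0.0395 to 0.0932, against -0.1169 to -0.0188 in those labelled control. The 10 enzyme genes have 2486 to 7503 bp of annotated exon.

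As a set, 4 enzymes (Phgdh, Psat1, Cbs and Gpt2) were called lower in the libraries labelled NFIAcKO and none higher, while 6.08% of all tested genes were called lower and 7.86% higher. DESeq2 also called 4 lower and 0 higher, beside 1406 lower and 1900 higher among the 13045 genes to which it gave an adjusted p. At an unadjusted p under 0.05 edgeR had 5 lower and 0 higher, and the share of all tested genes at that p was not counted. The groups did not overlap for 6 of the 10, all lower in NFIAcKO, beside 16.1% of all tested genes that were apart in that direction and 33.4% in either. The median log2 fold change was -0.19, against -0.01 for all tested genes. Psph was lower in every NFIAcKO library without passing the threshold. The folate enzymes and Asns were not called, with log2 fold changes from -0.06 (Asns) to 0.21 (Shmt1).

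**Figure D1:**
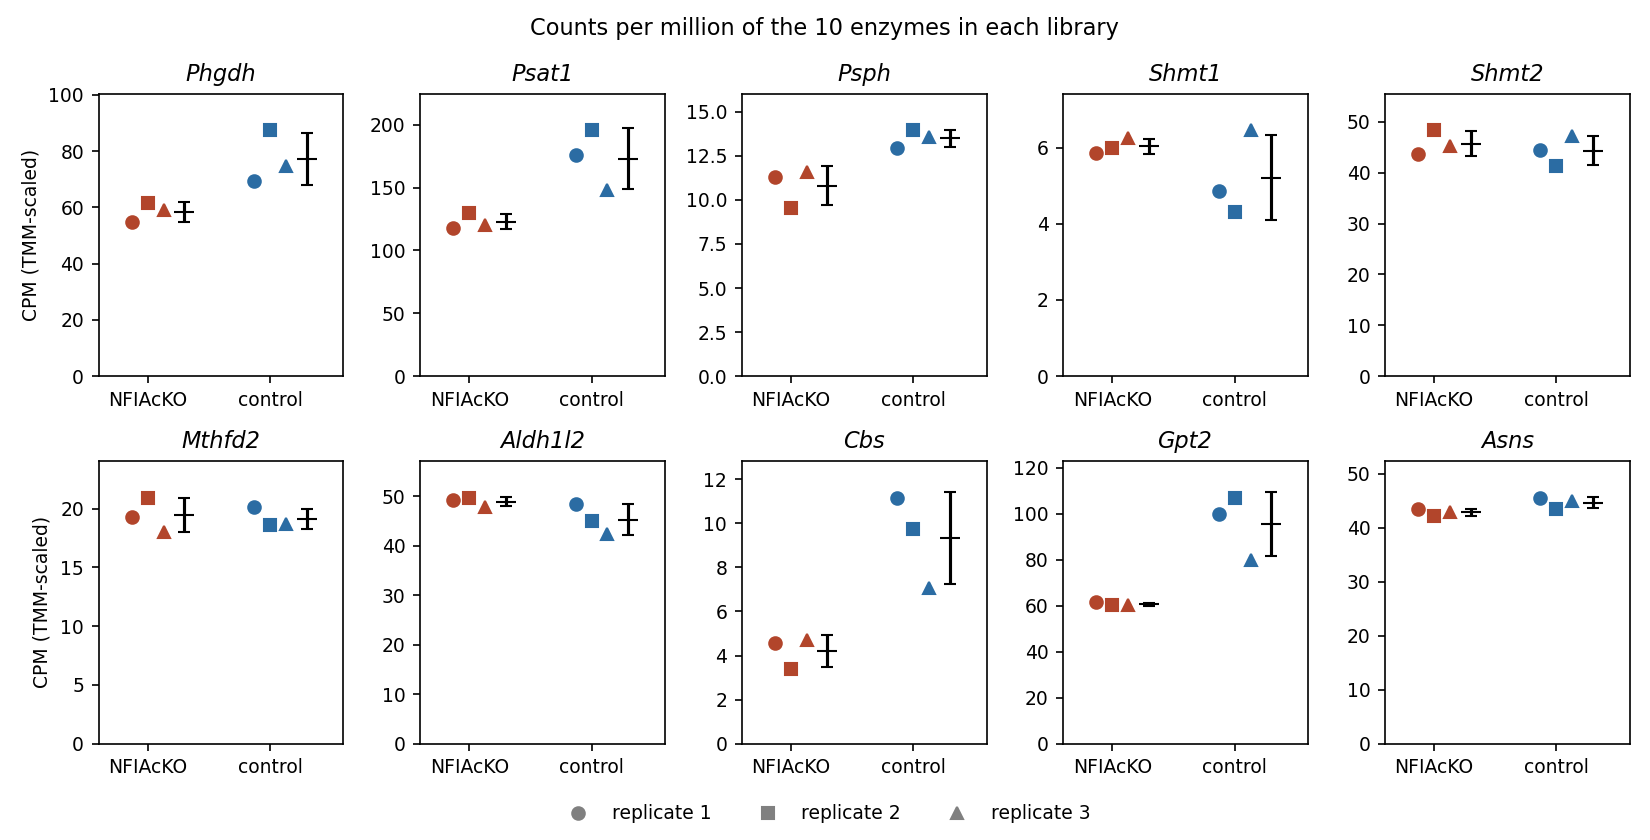
CPM of each enzyme gene (vertical axes, each from 0) in the 3 libraries labelled NFIAcKO and the 3 labelled control; symbols give the replicate, and the bar beside each group is its mean with the SD. Phgdh, Psat1, Cbs and Gpt2 lie lower in every NFIAcKO library than in any control library, while Shmt1, Shmt2, Mthfd2 and Aldh1l2 overlap.

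Phgdh, which opens the serine pathway and is held to set its rate, stood at 54.6, 61.6 and 58.9 CPM in NFIAcKO replicates 1 to 3 and at 69.5, 87.3 and 74.5 CPM in control replicates 1 to 3. Every NFIAcKO library lay below every control library. Its log2 fold change was -0.40 (SE 0.09). Phgdh (ENSMUSG00000053398.11) lies on chromosome 3 of GRCm38 from 98313170 to 98339990. The pseudogene Phgdh-ps1 had 0 to 1 count in any library, and how reads that fit both copies were counted is not given in the sources used here.

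Psat1, the aminotransferase of the next step, was the most abundant of the 10. It had 118, 129 and 121 CPM in NFIAcKO replicates 1 to 3 and 176, 196 and 148 CPM in control replicates 1 to 3. Again the groups were apart, and control replicate 3 was the control library nearest to the NFIAcKO group. The log2 fold change was -0.50 (SE 0.10), or 0.709-fold. Psat1 (ENSMUSG00000024640.9) is on chromosome 19 from 15904678 to 15947337.

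The phosphatase Psph, which completes serine synthesis, was less abundant, at 11.3, 9.55 and 11.6 CPM in NFIAcKO replicates 1 to 3 and 12.96, 13.9 and 13.6 CPM in control replicates 1 to 3. The groups did not overlap, and the log2 fold change of -0.32 (SE 0.12) was not past the threshold. Exons of Psph (chromosome 5, 129765558 to 129787449) overlap those of Cct6a on the other strand by 452 bp, and while the library kit keeps strand, the setting used in counting is not given in the sources used here. All 3 steps of serine synthesis were thus lower in each NFIAcKO library than in each control library.

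Cbs had the lowest fold change among the 10. This entry enzyme of transsulfuration stood at 4.57, 3.39 and 4.70 CPM in NFIAcKO replicates 1 to 3, from 221, 157 and 222 counts, and at 11.2, 9.76 and 7.08 CPM in control replicates 1 to 3, from 490, 514 and 329 counts. The NFIAcKO libraries were all below the controls, and control replicate 3 was again the nearest. Its log2 fold change was -1.14 (SE 0.18), or 0.453-fold. Cbs (ENSMUSG00000024039.15) lies on chromosome 17 from 31608894 to 31637238.

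Gpt2, which exchanges the amino group between alanine and glutamate in mitochondria, had 61.4, 60.4 and 60.3 CPM in NFIAcKO replicates 1 to 3 and 100.04, 106.9 and 80.1 CPM in control replicates 1 to 3. The NFIAcKO libraries were nearly equal while the controls spread widely, with SDs of 0.635 and 13.9 CPM (n = 3 each). Its log2 fold change was -0.66 (SE 0.10), or 0.634-fold. Gpt2 (ENSMUSG00000031700.11) is on chromosome 8 from 85492576 to 85527560.

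Among the folate enzymes, the mitochondrial trio stayed close between the groups. Shmt2 had 43.6, 48.3 and 45.2 CPM in NFIAcKO replicates 1 to 3 and 44.5, 41.3 and 47.1 CPM in control replicates 1 to 3, so the groups overlapped. Its log2 fold change of 0.04 had a 95% interval from -0.14 to 0.23. Mthfd2, the dehydrogenase that follows it, had 19.3, 20.9 and 18.1 CPM in NFIAcKO and 20.1, 18.6 and 18.7 CPM in control libraries. These overlapped too, with a log2 fold change of 0.02 (95% interval -0.20 to 0.24). Aldh1l2, which oxidises formyl-folate in mitochondria, had 49.2, 49.6 and 47.8 CPM in NFIAcKO and 48.5, 45.0 and 42.3 CPM in control libraries, a log2 fold change of 0.11 (95% interval -0.06 to 0.29). For Shmt2, Mthfd2 and Aldh1l2 the intervals together span 0.873-fold to 1.22-fold. Exons of Aldh1l2 and Shmt2 overlap genes on the other strand by 1056 bp (D10Wsu102e) and 32 bp (Ndufa4l2).

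The cytosolic Shmt1 was low in count, and among the enzymes not called it varied most between control libraries, though not between NFIAcKO libraries. It had 5.87, 5.98 and 6.25 CPM in NFIAcKO replicates 1 to 3 and 4.87, 4.31 and 6.45 CPM in control replicates 1 to 3. Control replicate 3 exceeded every NFIAcKO library and the other controls lay below them. The log2 fold change was 0.21 with a 95% interval from -0.13 to 0.56. It ranged from 0.08 without control replicate 2 to 0.39 without control replicate 3, past the threshold in none of the 6 such fits, and 184 bp of its exons overlap Smcr8 on the other strand.

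Asns, the asparagine synthetase with the response core shown above, had 43.5, 42.1 and 42.9 CPM in NFIAcKO replicates 1 to 3 and 45.5, 43.5 and 44.9 CPM in control replicates 1 to 3. NFIAcKO replicate 1 (43.451 CPM) and control replicate 2 (43.457 CPM) nearly touched, so the groups were apart only in form. The log2 fold change was -0.06, with a 95% interval from -0.23 to 0.11, and removing each library's trend with length and GC content gave 0.06.

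**Figure D2:**
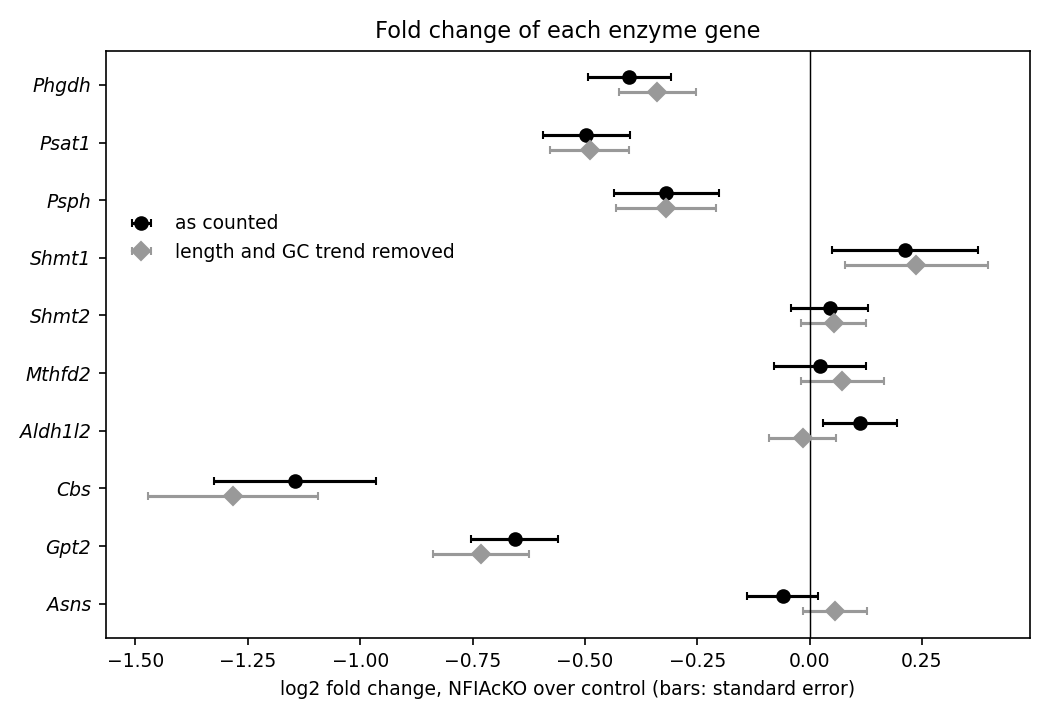
Log2 fold change of each enzyme gene, NFIAcKO over control (horizontal axis), as counted (black circles) and with each library's trend with transcript length and GC content removed (grey diamonds); bars are the SE. Cbs at -1.14 and Gpt2 at -0.66 lie farthest from 0, and the serine synthesis genes lie between -0.50 and -0.32 as counted.

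With each library's length and GC trend removed, the same 4 enzymes were called lower, beside 3.9% of all tested genes called lower and 3.82% higher. Cbs stood at -1.28 (SE 0.19), Gpt2 at -0.73 (SE 0.11), Psat1 at -0.49 (SE 0.09) and Phgdh at -0.34 (SE 0.09), and the median of the 10 was -0.17 against 0.01 for all tested genes. Cbs and Gpt2 were called in each of the 6 fits that left out a library. The Phgdh call was lost without NFIAcKO replicate 1 (log2 fold change -0.35) and without NFIAcKO replicate 3 (-0.42), and the Psat1 call without NFIAcKO replicate 1 (-0.47), so that 2 enzymes were called without NFIAcKO replicate 1 and 3 without NFIAcKO replicate 3. Among all tested genes these fits called 139 of 18183 and 150 of 18193 lower. File names carry a number shared by replicates 1 and 2 of each group and another shared by both replicates 3, and what it stands for is not given. Within replicates 1 and 2, a comparison added after the data were seen, 5 enzymes were called lower (Cbs at -1.39, Gpt2 at -0.76, Psat1 at -0.58, Phgdh at -0.43 and Psph at -0.37). That comparison called more genes in general, with 2356 lower and 2888 higher among 17926 tested genes. With all 6 libraries 1076 were lower and 1392 higher among 17711. The remaining pair, NFIAcKO replicate 3 and control replicate 3, has no replicate. There all 5 were lower in the NFIAcKO library, for example Gpt2 at 60.3 against 80.1 CPM. That follows from the groups not overlapping for these 5 enzymes and is no separate support.

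Within groups, 8 of the 10 enzymes varied less among the libraries labelled NFIAcKO than among those labelled control on the log2 scale, as 59.4% of all tested genes did. Psph and Mthfd2 were the exceptions. For Gpt2 the SD on the log2 scale was 0.0150 in NFIAcKO and 0.218 in control libraries.

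Levels of different genes were compared per length, as CPM per kilobase of annotated exon (RPKM). This order rests on summed exon length. On the longest transcript Mthfd2 stood above Aldh1l2 in control libraries (9.18 and 7.51 RPKM), and the levels of Mthfd2, Psat1 (66.2 RPKM), Gpt2 (26.3 RPKM) and Psph (4.69 RPKM) moved by over 1.5 times. In control libraries the order on summed exons ran from Psat1 and Phgdh, the opening steps of serine synthesis, to Shmt1 and Cbs. Psat1 averaged 28.8 ± 1.41 RPKM in NFIAcKO and 40.7 ± 5.65 RPKM in control libraries (SD, n = 3 each), and 93.3% of tested genes had a lower control level. Phgdh averaged 23.5 ± 1.42 and 31.0 ± 3.70 RPKM in NFIAcKO and control libraries. These overlapped in control libraries, but within each of the 6 libraries Psat1 was above Phgdh, by 1.16 to 1.48 times. Next in control libraries came Gpt2, with 10.8 ± 0.112 RPKM in NFIAcKO and 17.0 ± 2.47 in control, Asns with 15.7 ± 0.251 and 16.3 ± 0.388, and Shmt2 with 14.7 ± 0.766 and 14.3 ± 0.935. Gpt2 and Asns overlapped in control libraries. In the libraries labelled NFIAcKO Gpt2 lay below both Asns and Shmt2 without overlap.

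Farther down, Aldh1l2 averaged 6.52 ± 0.127 RPKM in NFIAcKO and 6.03 ± 0.410 in control libraries, and Mthfd2 5.58 ± 0.412 and 5.49 ± 0.248, the pair overlapping in control libraries only. Psph, the last step of serine synthesis, averaged 2.50 ± 0.255 and 3.11 ± 0.114 RPKM. It stood far below the steps before it, and Phgdh exceeded it by 8.42 to 11.2 times in NFIAcKO and 9.34 to 10.9 times in control libraries. Shmt1 averaged 1.55 ± 0.05001 RPKM in NFIAcKO and 1.34 ± 0.286 in control libraries, and Cbs 0.564 ± 0.0963 and 1.25 ± 0.277. Shmt1 and Cbs overlapped in control libraries and were apart in those labelled NFIAcKO.

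**Figure D3:**
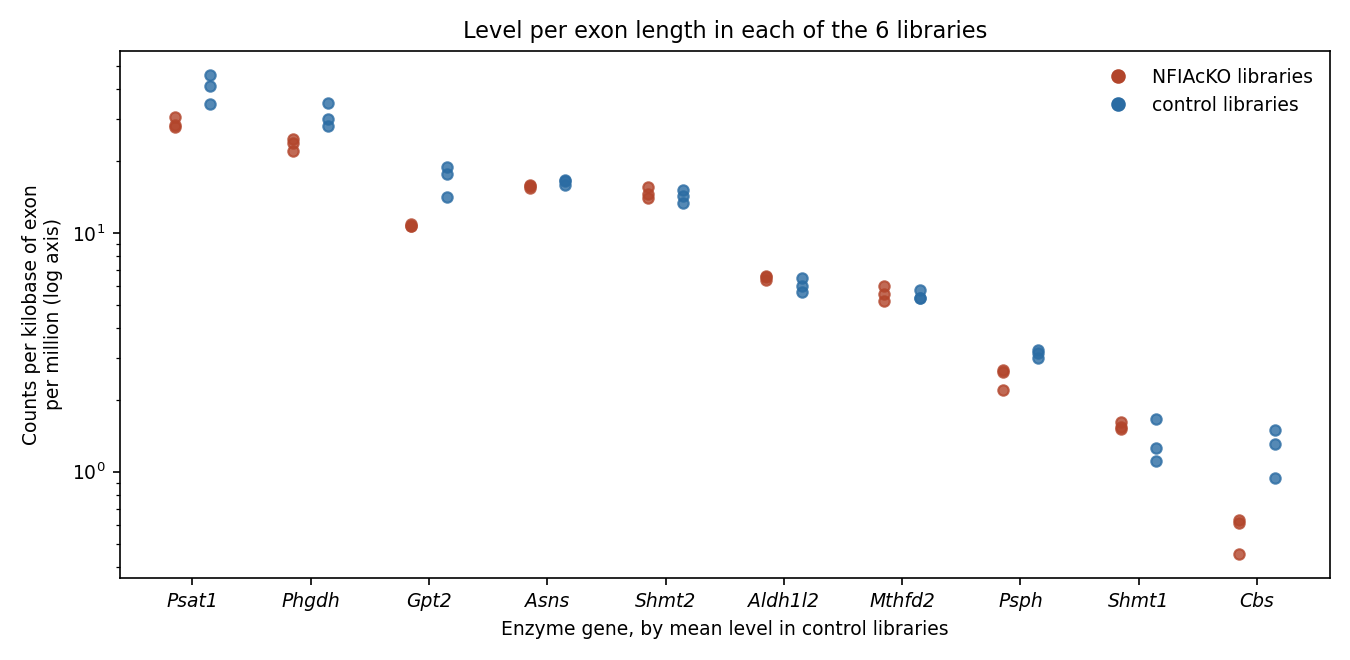
Level per exon length of the 10 enzyme genes in each library, in RPKM on a log axis, in order of their mean in control libraries; red points are libraries labelled NFIAcKO and blue points those labelled control. Levels run from 40.7 (Psat1) to 1.25 (Cbs) in the control means.

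Several of these enzymes have a partner that carries out the same kind of reaction, in the other compartment or, for Mthfd2 and Mthfd2l, also in mitochondria, and the ratio of the 2 genes was taken per length within each library. Aldh1l2 over its cytosolic counterpart Aldh1l1, a marker of astrocytes, was 0.750 to 0.869 in NFIAcKO and 0.409 to 0.430 in control libraries. This shift came with Aldh1l1 rather than Aldh1l2: Aldh1l1 had 37.4, 34.4 and 38.4 CPM in NFIAcKO and 67.9, 66.2 and 59.2 CPM in control libraries. Gpt2 over the cytosolic Gpt was 5.92 to 10.03 in NFIAcKO and 12.3 to 14.4 in control libraries, on a Gpt level of 1.44 and 1.27 RPKM. Shmt2 over Shmt1 (9.03 to 10.1 in NFIAcKO, 9.12 to 12.0 in control) and Mthfd2 over Mthfd2l (0.476 to 0.566 in NFIAcKO, 0.514 to 0.583 in control) overlapped between groups. On summed exon length Mthfd2l was therefore the more abundant of that pair in every library. The pair was not compared on the longest transcript. Gpt and Mthfd2l were named as partners after their values were seen.

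**Figure D4:**
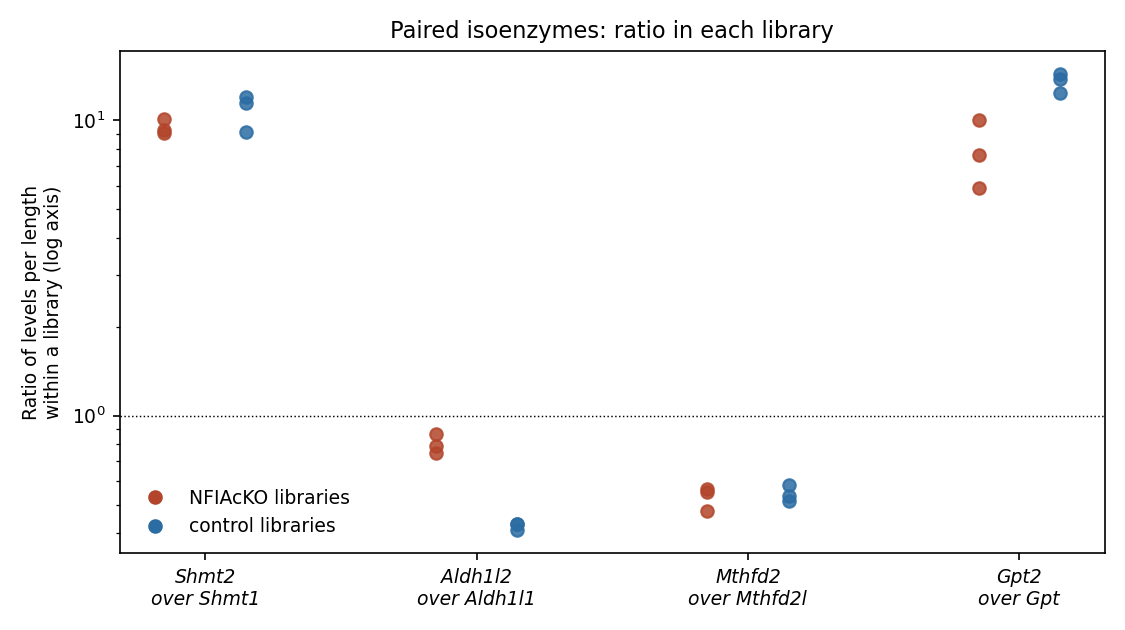
Ratio of the levels per length of 4 pairs of isoenzymes within each library (log axis); red points are libraries labelled NFIAcKO, blue points those labelled control, and the dotted line marks equal levels. Aldh1l2 over Aldh1l1 is higher in the NFIAcKO libraries (0.750 to 0.869, against 0.409 to 0.430) and Gpt2 over Gpt is lower, while the other pairs overlap.

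The rest of these pathways was read from 4 lists of 78 other enzymes and transporters, of which 68 were tested. Of these 5 fell, 1 rose and 62 did not pass (7.35% lower and 1.47% higher) in edgeR, beside 6.08% lower and 7.86% higher among all tested genes. DESeq2 and upper quartile scaling each called 10 lower. They also called more of all genes lower, 1406 of 13045 in DESeq2 and 1434 of 17711 with upper quartile scaling, against 1076 of 17711. The groups were apart and lower for 23.5% of the 68, beside 16.1% of all tested genes. Their median log2 fold change was -0.10. Among 19 tested folate genes Aldh1l1 and Ggh, the hydrolase that trims polyglutamate from folates, fell and none rose. Aldh1l1 averaged 36.7 ± 2.09 CPM in NFIAcKO and 64.4 ± 4.59 CPM in control libraries (SD, n = 3 each; log2 fold change -0.81, SE 0.09, edgeR adjusted p = 0.0008), a call kept without each library in turn and under trend removal. Ggh averaged 15.9 ± 0.703 and 21.9 ± 3.19 CPM (-0.46, edgeR adjusted p = 0.0196), a call that held without control replicate 3 only and was lost with the trend removed (-0.16, adjusted p = 0.29). Without control replicates 1 and 2 its adjusted p was 0.0736 and 0.0681, and without NFIAcKO replicates 1, 2 and 3 it was 0.101, 0.0692 and 0.0612. Mtr, methionine synthase, and Sardh, which oxidises sarcosine, had log2 fold changes of 0.26 (adjusted p = 0.098) and -0.27 (0.23). Genes of nucleotide and folate supply such as Tyms (18.1 and 19.8 CPM in NFIAcKO and control), Mthfd1 (35.16 and 34.95 CPM) and Slc19a1 (19.0 in both) had adjusted p from 0.49 to 1.0. These 3 were picked after their values were seen.

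In methionine, transsulfuration and glutathione metabolism 2 of 17 tested genes fell, 1 rose and 14 did not pass. Mat2b, the regulatory subunit of methionine adenosyltransferase, averaged 36.6 ± 1.17 CPM in NFIAcKO and 49.3 ± 4.83 CPM in control libraries (-0.43, SE 0.09, edgeR adjusted p = 0.0095), a call lost without NFIAcKO replicate 1 (adjusted p = 0.0565). Mpst, which acts on mercaptopyruvate, fell by 0.41 on the log2 scale (edgeR adjusted p = 0.042). That call held without control replicate 3 and was lost in the other 5 fits that left out a library (adjusted p = 0.0802 to 0.158), and with the trend removed (adjusted p = 0.0824, or 0.0389 when replicate numbers were also blocked). Ahcyl2, a relative of adenosylhomocysteinase, rose (0.33, edgeR adjusted p = 0.016). With the trend removed its log2 fold change was -0.01 (adjusted p = 0.97), and leaving out control replicate 1 (adjusted p = 0.0577), NFIAcKO replicate 1 (0.0858) or NFIAcKO replicate 3 (0.0652) ended the call. Mri1, of methionine salvage, stood at -0.29 (adjusted p = 0.085). Cth, which follows Cbs in transsulfuration, stood at 1.26 ± 0.0270 and 1.70 ± 0.313 CPM in NFIAcKO and control (-0.43, SE 0.24, adjusted p = 0.25). It was picked for its place in the pathway, after its values were seen. Mat2a had 0 to 3 counts and Slc25a32, the mitochondrial folate carrier, was listed at 0 in all 6 libraries, so neither could be tested. Most cells use both genes, and whether the counting missed their reads was not tested, so these values are not read as absence of the RNA. Both were named after their counts were seen.

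Of 20 tested genes of transamination, glutamine and proline, 1 fell and 19 did not pass in edgeR. DESeq2 called 5 lower and 0 higher, beside 1406 lower and 1900 higher among 13045 genes. At an unadjusted p under 0.05 edgeR had 6 lower and 0 higher. No share of all tested genes was counted at that p, here or for the next list, so these counts have no background. Glud1, glutamate dehydrogenase, averaged 186 ± 6.37 CPM in NFIAcKO and 254 ± 32.0 CPM in control libraries (-0.45, SE 0.09, edgeR adjusted p = 0.0094; 0.0514 without control replicate 1 and 0.0643 without NFIAcKO replicate 1). Pycrl, of proline synthesis, stood at -0.34 (adjusted p = 0.059, and 0.024 when replicate numbers were blocked), Kyat1 at -0.33 (0.062) and Oat, ornithine aminotransferase, at -0.24 (0.064). In serine and glycine metabolism, 0 of 12 tested genes passed in edgeR, with 4 lower and 2 higher at an unadjusted p under 0.05, and DESeq2 called 1 lower and 1 higher. The smallest p values there belonged to Gcat, which cleaves a threonine product to glycine (-0.38, adjusted p = 0.06), Srr, the racemase that makes D-serine (0.26, 0.076), and the glycine cleavage genes Gldc (0.25, 0.12) and Gcsh (-0.22, 0.12). Exons of Srr overlap other genes.

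In a list of Atf4 and other genes known to respond to it, which leaves out the 10 enzymes, no gene passed the test with all 6 libraries. Of its 24 tested genes edgeR and DESeq2 called 0, and the list's median log2 fold change was 0.03. At an unadjusted p under 0.05 edgeR had 3 lower and 1 higher, again without a count over all tested genes. Atf4 averaged 107.0 ± 10.5 CPM in NFIAcKO and 124 ± 5.08 CPM in control libraries (-0.22, SE 0.09, edgeR adjusted p = 0.10), with no overlap between groups. Vldlr, a lipoprotein receptor, stood at 0.22 (adjusted p = 0.10), Slc7a3, an arginine transporter, at -0.86 on under 1 CPM (0.16), and Ddit4, an inhibitor of mTOR signalling, at -0.30 (0.12). Only Ddit4 among these passed with the replicate number as a block (adjusted p = 0.027). Without control replicate 3 all 4 passed, with edgeR adjusted p of 0.0279 for Atf4 (-0.25), 0.0408 for Vldlr (0.24), 0.0346 for Slc7a3 (-1.15) and 0.0102 for Ddit4 (-0.40). None of them passed when any other library was left out (adjusted p = 0.0503 to 0.514). Within replicates 1 and 2, Atf4 (0.0272), Slc7a3 (0.0271) and Ddit4 (0.0143) passed. Among 20 tRNA synthetases, which ATF4 also induces in part, 2 rose and 1 fell. Eprs (0.31), Iars (0.32) and Dars (-0.30) had edgeR adjusted p of 0.033, 0.039 and 0.033. Each of these 3 calls was lost with the trend removed (0.79, 0.054 and 0.088) and in every fit that left out a library except the one without control replicate 3 (0.0767 to 0.19), and that of Iars also when replicate numbers were blocked (0.061). Mars stood at -0.23 (adjusted p = 0.079), and its exons overlap those of Ddit3.

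**Figure D5:**
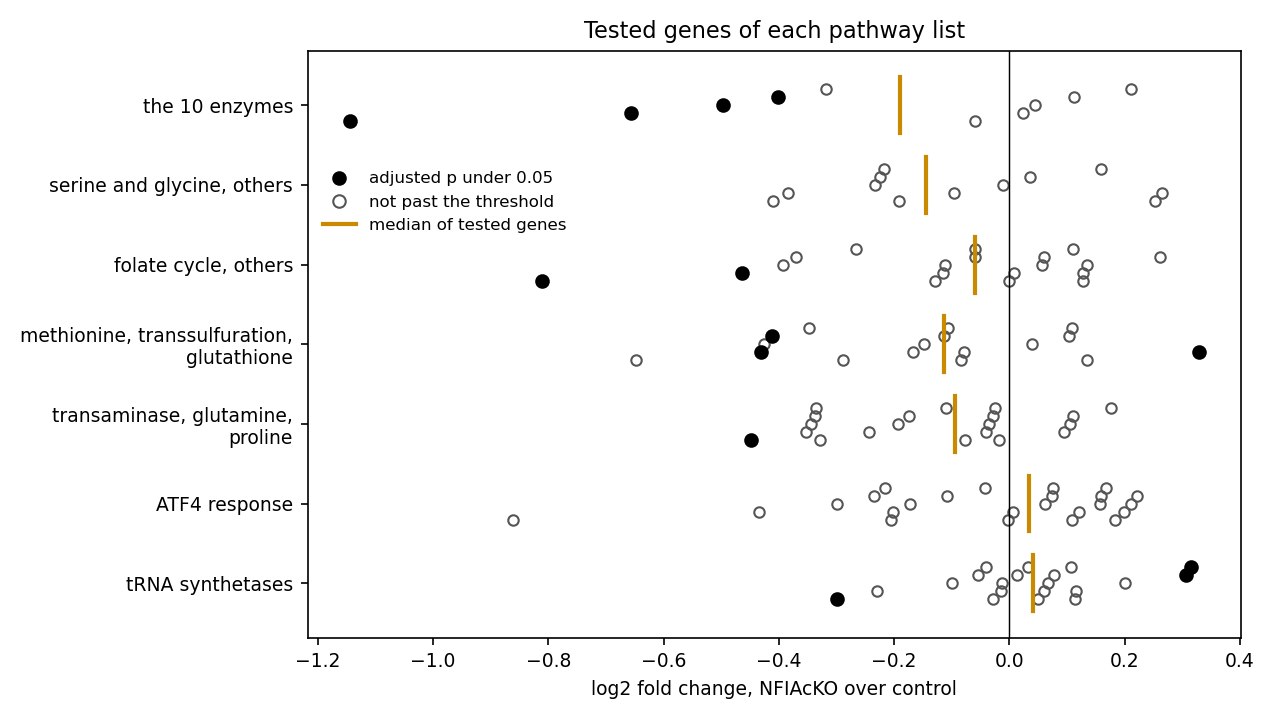
Log2 fold change, NFIAcKO over control, of every tested gene in the 10 enzymes and in 6 lists of related genes (one row each); filled points passed an adjusted p under 0.05 and the orange line is the list's median. Filled points are 4 among the 10 enzymes and 0 of 24 in the ATF4 response.

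Markers of cell types differed between the groups as well, and in bulk RNA fewer cells of a type and less RNA per cell cannot be told apart. For radial glia and astrocytes, 4 of 9 tested markers fell (Aldh1l1, Fabp7, Slc1a3 and Hes5), 1 rose (Nes) and Gfap, at 2 to 7 counts, was not tested. The summed level of that list was 2747 to 2992 CPM in NFIAcKO and 2997 to 3165 CPM in control libraries. Of 8 neuronal markers 3 rose and none fell, with sums of 9474 to 9937 and 8415 to 8733 CPM, and of 7 microglial markers 3 fell and none rose, with sums of 76.7 to 86.0 and 103 to 110 CPM in NFIAcKO and control libraries. Of 7 markers of endothelium and pericytes 4 rose (Cdh5, Kdr, Pecam1 and Pdgfrb) and 1 fell (Cldn5), with sums of 506 to 527 CPM in NFIAcKO and 475 to 494 CPM in control libraries. Sums of cycling progenitor, blood, meningeal and dorsal root ganglion markers overlapped between the groups, and of these markers only Mki67 was called, as higher (0.89, edgeR adjusted p = 0.0225). With the length and GC trend removed, 2 glial markers were lower (Aldh1l1 and Slc1a3) and 0 higher, 4 neuronal markers were higher and 2 endothelial markers were higher (Cdh5 and Kdr). Fabp7 then stood at -0.21 (adjusted p = 0.0725), Hes5 at -0.25 (0.169), Nes at 0.33 (0.056) and Mki67 at 0.72 (0.0658), and Hbb-y, of blood, was called higher (0.55, 0.0154). Marker genes were named after their values were seen. The part of these cell types in the levels of the enzymes was not tested.

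The genes whose profile over the 6 libraries lay nearest to that of Phgdh were not other enzymes of the pathway. By the root mean square difference of log2 CPM, each gene centred on its own mean, the nearest of 10091 genes with at least 10 CPM were Rfc4, Abtb1, Spryd4, Mospd1 and Adk, at 0.0317 to 0.0448. Adk is adenosine kinase and Rfc4 a subunit of the replication clamp loader. Psat1 ranked 650th at 0.114, Psph stood at 0.150, Gpt2 at 0.184 and Asns at 0.215, and Cbs was the most distant of the 10 at 0.468. The distance grows with any difference in the size of a change. Cbs, which fell more than Phgdh, thus lay farther away than Shmt1 (0.394), which did not fall. Whether the enzymes move together was not tested.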

How the data were processed

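The RNA libraries, 3 NFIAcKO and 3 control, came from spinal cord, with 1 file per library. The authors deposited raw counts, whole numbers for each gene symbol. Tools listed in the submitters' processing notes, without roles, are HTSeq, DESeq2 and STAR 2.6.1a, with mm10 as the build. No source used here gives the strand setting or annotation release. The 5 summary lines of each file (16.9 to 19.4% of its total) were left out. After filterByExpr and TMM scaling, all genes were fitted together with edgeR 4.0.16 (R 4.3.3), using its quasi-likelihood test in robust mode. SEs were derived from the log2 fold change and its F statistic. The procedure was run on simulated counts, which held no trend with length or GC content, and no call given here rests on that run. Lengths, positions and overlaps came from GENCODE M21 of GRCm38 (98.7% of tested genes matched), start regions from RefSeq. Length is the sum of all annotated exons. As an alternative, splines of 5 degrees of freedom took out each library's dependence on length and GC.

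The enzymes and lists were chosen with earlier results of these data known. Named genes were the 10 enzymes, Nfia, Atf4, the 4 tested genes with the smallest p in every list, and the 5 genes nearest to Phgdh. Any other gene was picked after its values were seen. Nothing says that replicates were separate litters, so p-values measure the spread between these samples. Libraries of a group differed beyond sampling noise (chi-square per degree of freedom 10.9 to 45.3). A count of 0 allows up to 3 counts, or 0.0583 to 0.0691 CPM, for counting error only. Same-numbered libraries of the 2 groups deviated together (correlations 0.353, 0.397 and 0.193 for replicates 1, 2 and 3; the numbers come from the titles), so the number was also used as a block. Alternatives were other scaling (upper quartile, RLE), no filter, DESeq2 1.42.0, blocks for the replicate and file numbers, Xist as a covariate, and each library left out.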

Additional observations from a re-analysis of the deposited data

How the results depend on the processing

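With the replicate number as a block, 4 enzymes were called lower and 0 higher, and beside Ddit4, Pycrl and Iars the block changed no other call among the named genes. The number of enzymes called lower was 2 to 4 over the 6 fits that left out a library, and 4 in each of the other settings listed with the methods. The same number did not stand beside the same background. Without NFIAcKO replicate 1, 2 enzymes and 139 of 18183 tested genes were called lower. Without control replicate 3, 4 enzymes and 2466 of 18204 were. The direction of enzymes near 0 turned in some fits: leaving out a library gave Shmt2 -0.0124 to 0.0870 (lowest without control replicate 2) and Mthfd2 -0.0297 to 0.0618 (below 0 without control replicate 2 and without NFIAcKO replicate 2). Upper quartile scaling put Mthfd2 at -0.0165. Removing the trend, without and with the block, put Aldh1l2 at -0.0149 and -0.0121, Asns at 0.0567 and 0.0578, Ahcyl2 at -0.00665 and -0.00634 and Gcsh at 0.0179 and 0.0182. None of these values was past the threshold, and the cause was not tested.

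Of the 68 other enzymes, 5 were lower and 1 higher. Lower calls numbered 10 with upper quartile scaling, 8 with no filter, 9 with the file number as a block, 3 with the trend removed, 10 with DESeq2 (2 higher), 11 within replicates 1 and 2 (4 higher; added after the data were seen) and 1 to 14 with a library left out (0 to 6 higher). With the trend removed, alone or with the block, 0 were higher. Across all genes, 1392 were higher and 1076 lower. The counts were 677 and 690 with the trend removed, 723 higher with the block added, 2888 and 2356 within replicates 1 and 2, and 282 to 2703 and 139 to 2466 with a library left out. Fewest lower calls came without NFIAcKO replicate 1, and most without control replicate 3. Upper quartile scaling gave 1057 higher and 1434 lower (42.4% higher, against 56.4%). DESeq2 gave 1900 higher and 1406 lower among 13045 genes. No filter gave 1759 and 1427 among 31190, and the file number block 1701 and 1411 among 17711.

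Levels per length rest on the length used. On the longest transcript the control means in RPKM were 40.7 for Phgdh, 66.2 for Psat1, 4.69 for Psph, 1.82 for Shmt1, 19.4 for Shmt2, 9.18 for Mthfd2, 7.51 for Aldh1l2, 26.3 for Gpt2, 22.1 for Asns and 1.499 for Cbs, which puts Mthfd2 above Aldh1l2 and leaves Cbs last. Cbs has the fewest counts among the enzymes that were lower, 157 to 514 per library.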
